A study of Mus musculus with 2 samples.

Results

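The data describe 10 mouse genes that encode receptor chains for cytokines other than interleukin-2 (IL-2): Il7r, Il4ra, Il21r, Il6ra, Il6st, Il12rb1, Il12rb2, Il18r1, Tgfbr1 and Tgfbr2. They were taken by gene symbol from the 32285 genes of the deposited matrix, and all 10 were found there. The choice used no measured value, although results of these data were known when it was made. CD8+ T cells from the spleens of WT mice, of unstated age, were held for 30 h in 1 of 6 conditions. Rested cells received no peptide-MHC. The other cultures were plated on streptavidin coated with biotinylated H-2Db monomers that carried the peptide M9C, at 0.2, 2 or 20 pmol, or the peptide L6F, at 20 or 80 pmol. Each culture was stained with its own hashtag antibody, whose barcode is read with the cell's RNA, live cells were sorted on propidium iodide, and all 6 were pooled in 1 lane of a 10x Genomics droplet platform. Each condition was 1 culture, so there are no replicates, no test between conditions is possible, and every interval below covers counting error only. The antigen specificity of the T cells is not given in the labels.

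Cytokine receptors are mostly built from a chain that recognises the cytokine and a partner chain that several receptors share. Most chains of this set signal through Janus kinases (JAKs) bound to their tails and the STAT transcription factors these phosphorylate. The IL-18 receptor instead signals through MyD88 and IRAK kinases, and the receptors for transforming growth factor beta (TGF-beta) are themselves kinases that act on SMAD proteins. In CD8+ T cells, IL-7 sustains naive and memory cells, whereas IL-12, IL-18 and IL-21 act on cells that have met antigen.

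A cell was given to a condition where its top hashtag had 20 or more counts and 80% or more of its hashtag counts, which placed 11671 of 13439 barcodes. Of these, cells were kept that had 500 or more genes and no more than 10% of their unique molecular identifiers (UMIs, each standing for 1 captured transcript) from mitochondrial genes. That left 755 rested cells, then 1589, 1703 and 1869 cells at 0.2, 2 and 20 pmol M9C, and 2477 and 2207 cells at 20 and 80 pmol L6F. The stimulated cultures held 11376897 to 16014100 UMIs in all, with medians of 6050 to 7114 UMIs per cell, and the rested culture held 918920 UMIs, with a median of 1056. The filter removed 1.43 to 3.71% of assigned stimulated cells and 52.3% of assigned rested cells. Ribosomal protein genes took 25.4 to 26.1% of UMIs in stimulated cultures and 33.6% in rested cells. The CD8 T cell list (Cd8a, Cd8b1, Cd3e, Cd3d, Cd3g, Trac) had 1999 to 2159 CPM (UMIs scaled to a common total per culture) in stimulated cultures, against 3844 CPM in rested cells, and Cd4 had 0 or 1 UMI in every culture. Of the B cell list, Ighm stood at 202 to 250 CPM in stimulated and 240.5 CPM in rested cells.

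Levels are given on 2 scales. CPM sets a gene's summed UMIs against all UMIs of the culture, and UMIs per 100 cells sets them against cells. The scales part where stimulated and rested cells are compared, because the stimulated cells held more UMIs each. A gene was measured in a comparison at 10 CPM or more in either culture, and counted as higher or lower where it differed by more than 2-fold and the 95% interval of its ratio did not include equality.

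The starts of 3 genes are shown because their transcripts carried the main differences: Il7r was lower in every stimulated culture, Il12rb2 was higher in every one, and Il4ra differed between the peptides. Each line gives 250 bases before and 50 after the annotated start, 5′ to 3′ on the gene's strand, from RefSeq on GRCm38.p6. Capitals mark a GAS match (TTCNNNGAA, the palindrome that STAT dimers bind). The windows are chr15:9529827-9530126 on the minus strand for Il7r, chr6:67376139-67376438 on the minus strand for Il12rb2, and chr7:125552021-125552320 on the plus strand for Il4ra.
Il7r: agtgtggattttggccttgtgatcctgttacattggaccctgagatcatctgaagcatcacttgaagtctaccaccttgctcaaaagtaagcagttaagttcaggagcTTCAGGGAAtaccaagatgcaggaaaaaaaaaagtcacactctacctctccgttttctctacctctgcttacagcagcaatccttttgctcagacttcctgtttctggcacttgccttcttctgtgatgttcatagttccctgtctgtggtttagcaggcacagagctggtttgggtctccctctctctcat
Il12rb2: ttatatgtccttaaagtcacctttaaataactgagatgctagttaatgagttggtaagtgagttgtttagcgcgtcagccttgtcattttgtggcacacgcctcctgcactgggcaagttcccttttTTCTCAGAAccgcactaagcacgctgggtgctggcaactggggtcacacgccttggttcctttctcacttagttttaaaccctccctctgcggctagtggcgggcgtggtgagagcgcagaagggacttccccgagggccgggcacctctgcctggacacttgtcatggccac
Il4ra: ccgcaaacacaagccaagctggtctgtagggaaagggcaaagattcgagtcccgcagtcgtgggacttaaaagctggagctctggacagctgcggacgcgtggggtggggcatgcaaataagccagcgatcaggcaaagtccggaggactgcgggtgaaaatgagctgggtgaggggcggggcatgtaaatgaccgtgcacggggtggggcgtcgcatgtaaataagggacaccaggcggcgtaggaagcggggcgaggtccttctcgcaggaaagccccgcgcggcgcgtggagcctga

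RefSeq windows were matched for 9 of the 10 genes, 12 windows in all, since Il18r1 has 3 and Tgfbr1 has 2 starts; Il12rb1 had no entry. Besides GAS, the letters of AP-1 (TGANTCA), forkhead (GTAAACA), NFAT (TTTCCA) and T-box (TTCACAC) sites were searched on both strands. Counted from the RefSeq starts, a GAS match lay 142 bases before that of Il7r and 123 bases before that of Il12rb2. Of the Il18r1 windows, 1 held GAS matches 219 and 152 bases before its RefSeq start. The same letters occur in 8.3% of all 32851 RefSeq promoter windows of that length. The Il7r window and that Il18r1 window lie wholly inside the gene spans of GENCODE (chr15:9505788-9530176 and chr1:40465552-40500854). By that annotation, their GAS matches are within the gene and not before its start. The Il21r window held a forkhead match 38 bases before its start (3.65% of all windows), the same 6 NFAT letters lay in 2 overlapping Il18r1 windows (21.4% of all windows), and AP-1 and T-box letters were in none of the 12 (7.81% and 3.24% of all windows). The windows also differ in base composition: that of Il4ra has 62.0% G and C and 25 CpG, that of Il12rb2 53.0% and 12, and that of Il7r 45.7% and 1. The letters in these windows are a description and were not tied to the expression values.

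In the cells at 20 pmol M9C, 7 of the 9 measured receptor genes were lower than in rested cells on the CPM scale and 2 were higher. Il7r, Il18r1, Il6ra, Tgfbr2, Il6st, Il21r and Il4ra were lower; the 2 that were higher, Il12rb1 and Il12rb2, encode the pair of chains of the IL-12 receptor. Of all 7779 genes measured in this comparison, 16.9% were counted as higher and 16% as lower. The median log2 ratio was -1.87 over the 9 receptor genes and 0.10 over all genes measured. At 20 pmol L6F the same IL-12 receptor chains were higher than in rested cells, against 14.3% of all measured genes, and 5 receptor genes were lower, against 14% of all measured genes; Il4ra and Il21r did not pass 2-fold. At 80 pmol L6F the counts were also 2 higher (13.5% of all measured genes) and 5 lower (13.3%). At 2 pmol M9C 2 were higher (16.7% of all measured genes) and 7 lower (16.4%), and so it was at 0.2 pmol (16.5% and 16.3%). These comparisons share the single rested culture.

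**Figure D1:**
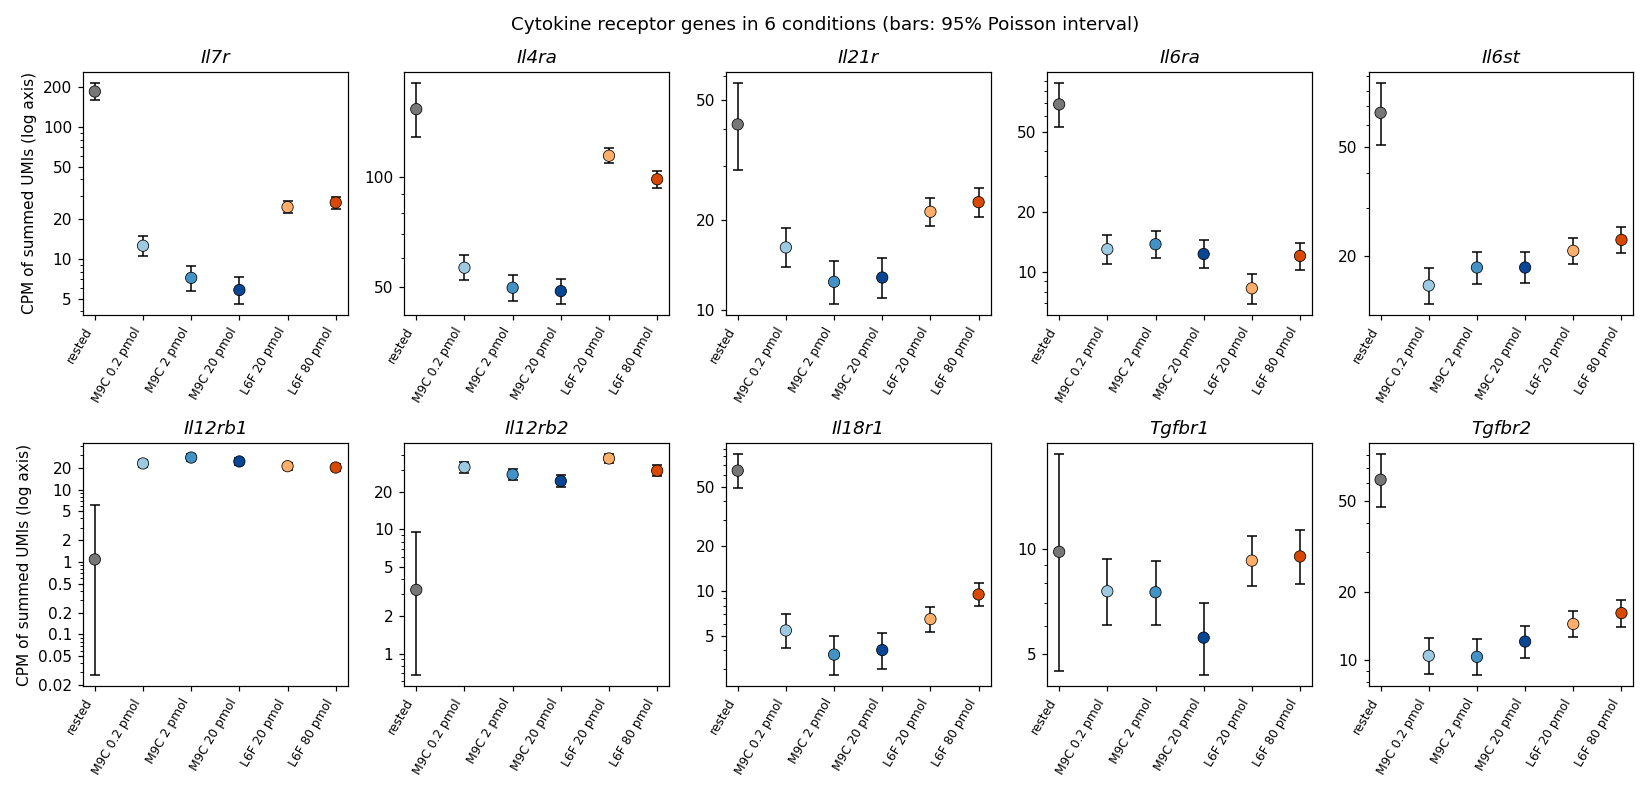
CPM of each receptor gene (log axis) in rested cells, at 0.2, 2 and 20 pmol M9C and at 20 and 80 pmol L6F; points are 1 culture each and bars are exact 95% Poisson intervals. Il12rb1 and Il12rb2 are lowest in rested cells, and 7 other genes are highest there, with Tgfbr1 intervals overlapping.

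The fall in CPM was for most of these genes not a fall in UMIs per cell. All measured genes had a median log2 ratio of 2.61 in UMIs per cell at 20 pmol M9C over rested cells, and the 9 receptor genes one of 0.64. On that scale only Il7r, with a log2 ratio of -2.49 (95% interval -2.90 to -2.09), and Il18r1, with -1.49 (-2.06 to -0.93), were more than 2-fold lower than in rested cells, as were 1.63% of all measured genes, and Il12rb1 and Il12rb2 were higher, as were 90.7%. Il6ra and Tgfbr2 had per-cell log2 ratios of 0.03 and 0.14 with intervals that included equality, and Il6st, Il21r and Il4ra had 0.64, 0.82 and 0.85. At 20 pmol L6F no receptor gene was more than 2-fold lower per cell, against 0.972% of all measured genes, and Il4ra, Il21r, Il12rb1 and Il12rb2 were more than 2-fold higher, against 91.8%. In what follows, lower CPM than rested cells therefore means a smaller part of the cell's captured RNA.

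**Figure D2:**
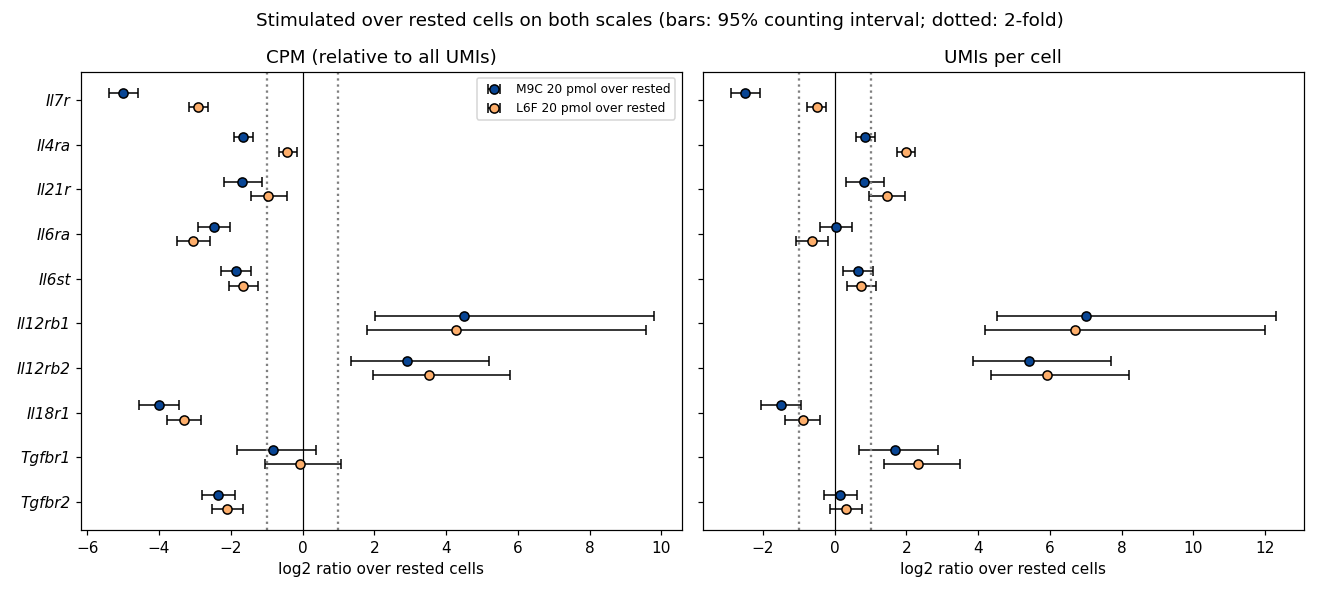
Log2 ratio of 20 pmol M9C (dark blue) and 20 pmol L6F (orange) over rested cells for each receptor gene, in CPM (left) and in UMIs per cell (right), with exact 95% counting intervals; dotted lines mark 2-fold. Il7r and Il18r1 are below equality at 20 pmol M9C on both scales, and Il12rb1 and Il12rb2 are above it on both.

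Il7r (ENSMUSG00000003882, chr15:9505788-9530176 on GRCm38) encodes the alpha chain of the IL-7 receptor, which pairs with the common gamma chain. It stood at 185.0 CPM in rested cells, at 12.6, 7.18 and 5.81 CPM at 0.2, 2 and 20 pmol M9C, and at 24.7 and 26.7 CPM at 20 and 80 pmol L6F. No stimulated culture came near the rested one, and both L6F cultures stood above all 3 M9C cultures. At 20 pmol M9C it was 31.9-fold lower than in rested cells (95% interval 24.1 to 42.4), and at 20 pmol L6F 7.50-fold lower (6.23 to 9.0). In UMIs per 100 cells Il7r had 22.5 in the rested culture, 9.0, 5.05 and 4.01 along the M9C doses, and 15.9 and 16.7 along the L6F doses. The order of the cultures was thus the same on both scales. An Il7r UMI was seen in 18.1% of rested cells, in 7.61, 4.17 and 3.32% of cells along the M9C doses and in 12.9 and 12.9% along the L6F doses. With every cell thinned to 1000 UMIs, which kept 464 of the 755 rested cells and nearly all others, those shares were 16.4% in rested cells, 1.20, 0.648 and 0.483% along the M9C doses, and 2.27 and 2.68% along the L6F doses.

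Il7r was also the only measured receptor gene that passed 2-fold between M9C doses. At 20 pmol M9C it was 2.16-fold lower than at 0.2 pmol (1.63 to 2.90). Of all genes measured there, 0.143% were counted as lower and 0.272% as higher, and none of the other 7 measured receptor genes passed. In the shallowest tertile of cells by UMI total Il7r was 5.57-fold lower (2.57 to 13.8), from 8 against 40 UMIs. The middle and deepest tertiles fell short of 2-fold, with Il7r 1.89-fold (1.11 to 3.28) and 1.68-fold lower (1.12 to 2.53). Between 2 and 0.2 pmol M9C its log2 ratio was -0.81 (-1.21 to -0.41), and between 20 and 2 pmol it was -0.31 (-0.77 to 0.16), which does not separate the upper doses. No receptor gene passed 2-fold in either of those steps, where 0.0719% and 0.0432% of all measured genes were lower and 0.115% and 0.0288% higher. At 80 over 20 pmol L6F the Il7r log2 ratio was 0.11 (-0.09 to 0.32); 0 of 8 measured receptor genes and 0% of all measured genes passed 2-fold.

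M9C and L6F can be compared at a matched dose only at 20 pmol. There, 2 of 8 measured receptor genes were lower with M9C and 0 were higher, against 0.756% and 0.884% of all measured genes. Il7r was 4.25-fold lower with M9C than with L6F (3.31 to 5.51), and Il4ra 2.34-fold lower (2.14 to 2.57). The Il7r difference was present in every tertile of cells by UMI total: 3.27 CPM with M9C and 31.1 CPM with L6F in the shallowest, 5.63 and 22.0 CPM in the middle, and 6.93 and 24.0 CPM in the deepest. It was present in cells with no UMI of Il2ra, the IL-2 receptor alpha chain that activated T cells carry, at 4.01 CPM with M9C and 28.7 CPM with L6F. It was present likewise in cells with 1 or more Il2ra UMIs, at 6.54 CPM with M9C and 22.5 CPM with L6F. Markers of gamma-delta T cells (Trdc, Tcrg-C1, Tcrg-C2, Sox13) summed to 59.5 CPM at 20 pmol M9C, 96.9 CPM at 20 pmol L6F and 428 CPM in rested cells, with 2 or more UMIs in 9.10%, 15.2% and 12.5% of cells. Trdc alone gave 745 of the 769 summed UMIs at 20 pmol M9C, 1448 of 1552 at 20 pmol L6F and 366 of 393 in rested cells. Whether cells with these UMIs were gamma-delta T cells was not tested. Without the cells that had 2 or more UMIs of this list, the log2 ratio of M9C over L6F was -2.04 for Il7r and -1.25 for Il4ra.

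**Figure D3:**
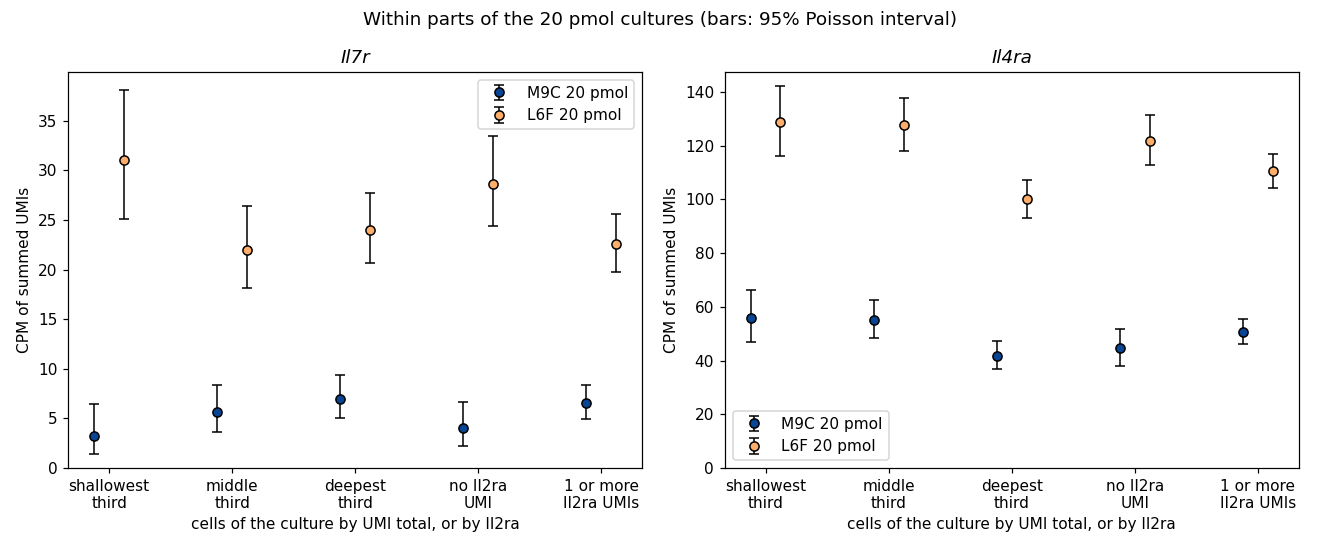
CPM of Il7r (left) and Il4ra (right) at 20 pmol M9C (dark blue) and 20 pmol L6F (orange) within tertiles of cells by UMI total and within cells without and with an Il2ra UMI; bars are exact 95% Poisson intervals. The M9C cells lie below the L6F cells in each of the 5 subsets for both genes.

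Il4ra (chr7:125552120-125579474) encodes the alpha chain of the receptors for IL-4 and, with a different partner, IL-13. Its levels were 153 CPM in rested cells, 56.6, 49.9 and 48.9 CPM along the M9C doses and 114 and 98.7 CPM along the L6F doses. All M9C cultures lay below both L6F cultures. The gene was 3.14-fold lower at 20 pmol M9C than in rested cells (2.60 to 3.78), while at 20 pmol L6F it was 1.34-fold lower (1.12 to 1.59). The direction at 20 pmol L6F turned against rested cells with 1000 or more genes, where the log2 ratio was 1.06 (0.07 to 2.27), from 8 rested UMIs. Per 100 cells the order turned round for rested cells, with 18.7 UMIs in rested cells, 40.5, 35.1 and 33.8 along the M9C doses, and 74.0 and 61.7 along the L6F doses. The gap between the peptides stayed on this scale, with a log2 ratio of -1.13 (-1.26 to -1.001) at 20 pmol M9C over 20 pmol L6F. Within the tertiles of cells, Il4ra was at 56.0, 55.1 and 41.7 CPM with M9C and at 129, 128 and 100.1 CPM with L6F, from shallowest to deepest.

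Il21r (chr7:125603429-125633570) encodes the IL-21 receptor and lies next to Il4ra on the same strand. It was at 41.4 CPM in rested cells, at 16.2, 12.4 and 12.9 CPM along the M9C doses and at 21.2 and 22.9 CPM along the L6F doses. As for Il7r and Il4ra, both L6F cultures lay between the M9C cultures and the rested one. The CPM of Il6st, Il18r1, Tgfbr2 and Tgfbr1 had the same order, so it is not particular to these genes. For those others, the interval between 20 pmol L6F and the highest M9C culture included equality. At 20 pmol M9C the Il21r log2 ratio was -1.69 over rested cells (-2.20 to -1.14) and -0.72 over 20 pmol L6F (-1.001 to -0.45), the second short of 2-fold. Il2rg, the common gamma chain that IL-7, IL-4 and IL-21 receptors share, did not keep that order, with 257 CPM in rested cells, 111, 119.5 and 122 CPM along the M9C doses, and 109 and 107 CPM along the L6F doses.

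**Figure D4:**
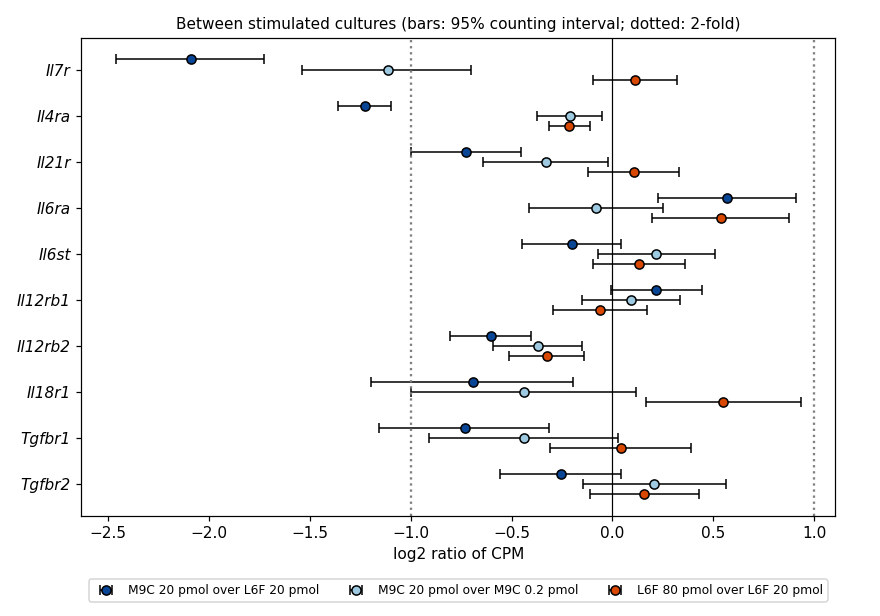
Log2 ratio of CPM for 20 pmol M9C over 20 pmol L6F (dark blue), 20 over 0.2 pmol M9C (light blue) and 80 over 20 pmol L6F (dark orange), with exact 95% counting intervals; dotted lines mark 2-fold. Il7r and Il4ra are the genes past 2-fold between the peptides, and Il7r is the one past it between the M9C doses.

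Il6ra (chr3:89864059-89913196) encodes the chain that binds IL-6, and Il6st (chr13:112464070-112510086) encodes gp130, the signalling chain it shares with other receptors. Il6ra was at 68.6 CPM in rested cells, 13.0, 13.8 and 12.3 CPM along the M9C doses, and 8.31 and 12.04 CPM along the L6F doses. The 20 pmol L6F culture was the lowest in CPM, with a log2 ratio of 0.54 (0.20 to 0.88) at 80 over 20 pmol L6F, but with cells thinned to 1000 UMIs that ratio was -0.20 (-1.09 to 0.68). The other 4 stimulated cultures could not be told from their neighbours in the order, the interval of their ratio including equality. Of the members whose interval excluded equality at 20 pmol M9C over 20 pmol L6F, Il6ra was the one with a positive log2 ratio, 0.57 (0.23 to 0.91), although with cells thinned to 1000 UMIs it was -0.03 (-0.94 to 0.86). Il6st was at 66.4 CPM in rested cells, 15.6, 18.2 and 18.2 CPM along the M9C doses and 20.9 and 22.9 CPM along the L6F doses. No stimulated culture could be told from the next in the order of levels. Only neighbours were compared, and the ends of the order were further apart, at 22.9 CPM (20.5 to 25.6) for 80 pmol L6F and 15.6 CPM (13.4 to 18.1) for 0.2 pmol M9C, which differ in peptide and dose. M9C over L6F at 20 pmol gave a log2 ratio of -0.20 (-0.45 to 0.04).

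The IL-12 receptor chains moved the other way from the rest. Il12rb1 (chr8:70808449-70821424), also part of the IL-23 receptor, had 1 UMI in the rested culture, or 1.09 CPM, and stood at 23.0, 27.8 and 24.5 CPM along the M9C doses and at 21.1 and 20.2 CPM along the L6F doses. Its log2 ratio at 20 pmol M9C over rested cells was 4.50 with an interval of 2.01 to 9.80, wide because of that 1 UMI. The 5 stimulated cultures could not be told from their neighbours in the order, while its ends were 27.8 CPM (24.9 to 30.9) at 2 pmol M9C and 20.2 CPM (17.9 to 22.8) at 80 pmol L6F. Il12rb2 (chr6:67291318-67376188), the chain that confers signalling through STAT4, had 3 UMIs in the rested culture, or 3.26 CPM, and stood at 31.7, 27.7 and 24.5 CPM along the M9C doses and at 37.3 and 29.7 CPM along the L6F doses. At 20 pmol M9C its log2 ratio was 2.91 over rested cells (1.35 to 5.20) and -0.60 over 20 pmol L6F (-0.80 to -0.40). Among M9C doses it had the opposite direction to a rise with dose, with a log2 ratio of -0.37 (-0.59 to -0.15) at 20 over 0.2 pmol.

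Rested and stimulated cells shared 1 lane, so free RNA in the droplets was common to them. An Il12rb1 UMI was seen in 14.8, 16.7 and 15.5% of cells along the M9C doses and in 12.3 and 11.7% along the L6F doses, against 0.132% of rested cells (exact binomial interval 0.00335 to 0.736%). For Il12rb2 those shares were 19.4, 17.1, 14.3, 20.5 and 15.99%, against 0.397% of rested cells (0.0820 to 1.16%). With cells thinned to 1000 UMIs, Il12rb1 was seen in 1.66 to 2.89% of stimulated cells and 0.216% of rested cells (0.00546 to 1.1949%). Its lowest stimulated share, at 20 pmol L6F, had an interval of 1.1952 to 2.25%, which only just cleared the rested one. Il12rb2 was then seen in 2.14 to 3.49% of stimulated cells and 0.431% of rested cells (0.0522 to 1.55%). Its lowest stimulated share, at 80 pmol L6F, had an interval of 1.57 to 2.83%. Cells with UMIs of both chains numbered 55, 62 and 39 along the M9C doses and 82 and 49 along the L6F doses. Independent capture would give 45.6, 48.9 and 41.4 along the M9C doses and 62.7 and 41.4 along the L6F doses, so 20 pmol M9C was the culture below that value. These counts share their cells' depth and are a description.

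Il18r1 (chr1:40465552-40500854) encodes the chain that binds IL-18. It was at 64.2 CPM in rested cells, at 5.45, 3.76 and 4.03 CPM along the M9C doses and at 6.49 and 9.50 CPM along the L6F doses. All stimulated cultures were below 10 CPM and so far below the rested one, with 80 pmol L6F the highest among them. It was 15.9-fold lower at 20 pmol M9C than in rested cells (10.8 to 23.6), and at 20 pmol L6F 9.89-fold lower (7.06 to 13.7). Its log2 ratio of 0.55 at 80 over 20 pmol L6F (0.17 to 0.93) was one of 2 positive ones there whose interval excluded equality, with Il6ra at 0.54 (0.20 to 0.88). Il18rap, the accessory chain of the same receptor, was under 10 CPM in every culture, with 4.17 to 6.43 CPM in stimulated cells, against 7.62 CPM in the rested ones.

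Of the TGF-beta receptor chains, Tgfbr2 (chr9:116084293-116175360), which binds the ligand, was at 62.0 CPM in rested cells, 10.5, 10.3 and 12.1 CPM along the M9C doses and 14.4 and 16.1 CPM along the L6F doses. It was 5.14-fold lower at 20 pmol M9C than in rested cells (3.72 to 6.998), and no stimulated culture could be told from the next in the order, whose ends were 16.1 CPM (14.1 to 18.4) at 80 pmol L6F and 10.3 CPM (8.61 to 12.3) at 2 pmol M9C. Tgfbr1 (chr4:47353222-47414931), the kinase that Tgfbr2 activates, was under 10 CPM in every culture and so was not measured, with 9 UMIs or 9.79 CPM in rested cells, 7.56, 7.51 and 5.57 CPM along the M9C doses, and 9.24 and 9.50 CPM along the L6F doses. Its log2 ratio at 20 pmol M9C over rested cells was -0.81 with an interval of -1.82 to 0.37, so a 2-fold difference in CPM was not detectable at the rested depth. With no filter on genes per cell the rested culture held 26 Tgfbr1 UMIs, or 17.4 CPM, and the log2 ratio was -1.64 (-2.31 to -0.94), so that Tgfbr1 then counted as measured and lower.

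Shares of cells with a UMI were set against 72 stimulated cells that had no UMI of the CD8 T list; whether they lack these receptors was not tested. They held a median of 2900 UMIs, against 6628 in the other stimulated cells. Il4ra was seen in 8.33% of them (3.12 to 17.3%), against 32.9% of the others, and Il12rb1 in 4.17% (0.868 to 11.7%), against 14.0%. In every stimulated culture the shares of Il4ra and Il12rb1 were above the upper bound in these cells, though for Il12rb1 at 80 pmol L6F by little, with 11.74% against a bound of 11.70%. An Il2rg UMI was seen in 31.9% of the 72 cells and an Il2ra UMI in 13.9%, and the intervals from so few cells are wide. Lying within such an interval therefore does not place a gene at background. For Il6ra, Il6st, Il18r1, Tgfbr1 and Tgfbr2, the shares in all 5 stimulated cultures lay within the interval of these cells. The same holds for Il7r at all 3 M9C doses, against an interval of 0.338 to 9.68%, but its shares at both L6F doses lay above it. Il21r lay within the same interval at 2 and 20 pmol M9C, and Il12rb2 lay within 3.12 to 17.3% at 2 and 20 pmol M9C and 80 pmol L6F. The part of the lower depth of the 72 cells in these shares was not tested.

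Other genes of these pathways were counted from lists. Of 22 partner chains and other cytokine receptors, 9 were measured at 20 pmol M9C over rested cells, of which 0 were higher and 6 lower (Il2rg, Il10ra, Il10rb, Il17ra, Ifnar1 and Ifnar2). Il10rb encodes the shared second chain of the IL-10 and IL-22 receptors. It stood at 9.91 CPM at 20 pmol M9C, 20.7 CPM at 20 pmol L6F and 75.1 CPM in rested cells. It alone of 8 measured chains was also lower with M9C than with L6F at 20 pmol, with a log2 ratio of -1.06 (-1.37 to -0.76). Of all genes measured between the peptides, 0.756% were lower and 0.884% higher. Of 11 JAK and STAT genes, 10 were measured, with 0 higher and 1 lower at 20 pmol M9C (Jak1, with 199 CPM at 20 pmol M9C and 477 CPM in rested cells). Median log2 ratios over rested cells at 20 pmol M9C were -1.07 for the partner chains and 0.31 for the JAK and STAT genes, beside 0.10 for all measured genes, of which, as above, 16.9% were higher and 16% lower.

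Of 16 further genes of TGF-beta signalling, 6 were measured at 20 pmol M9C, with 0 higher and 2 lower: Smad7, an inhibitor of the pathway, with 16.2 CPM at 20 pmol M9C and 109 CPM in rested cells, and Skil, with 16.5 and 37.0 CPM. Of 7 IL-18 signalling genes, 6 were measured, and Irak4 was lower, with 9.75 CPM at 20 pmol M9C and 27.2 CPM in rested cells. Of 16 ligand genes 1 was measured, Tgfb1, with 151 CPM at 20 pmol M9C and 82.7 CPM in rested cells, which did not pass 2-fold. Of 7 genes known in mouse T cells to act on Il7r, 4 were lower than in rested cells at 20 pmol M9C (Foxo1, Foxp1, Ets1 and Runx1). Gfi1 was higher, with 11.8 CPM at 20 pmol M9C, against 1.09 CPM, from 1 UMI, in rested cells. Between M9C and L6F at 20 pmol, 0 of the 6 measured passed 2-fold. Of all genes measured there, 0.756% were lower and 0.884% higher, so that count does not set these genes apart. Ets1 had 99.7 CPM with M9C and 178 CPM with L6F, and Foxo1 had 25.6 and 38.1 CPM. Median log2 ratios at 20 pmol M9C over rested cells were -0.67 for the TGF-beta list, 0.11 for the IL-18 list and -1.02 for the genes acting on Il7r, beside the same 0.10, 16.9% and 16% for all measured genes.

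For each receptor gene that reached 10 CPM, the 2 genes with the most similar profile over the 6 cultures were found by the root mean square difference of mean-centred log2(CPM + 1) among 7527 genes. For Il7r these were Pgpep1l, at 0.26, and Arl4c, at 0.27. Arl4c, a small GTPase gene, was at 624 CPM in rested cells, 25.6, 19.3 and 19.4 CPM along the M9C doses and 54.6 and 61.1 CPM along the L6F doses. Irf8, an interferon regulatory factor, lay nearest to Il12rb1, at 0.06, with 11.97 CPM in rested cells, 131, 162 and 147 CPM along the M9C doses and 120 and 122 CPM along the L6F doses. For Il18r1 the nearest were Trim30c, at 0.13, and Ifngr1, the ligand-binding chain of the interferon-gamma receptor, at 0.13. For the rest, Il4ra was most like Tm6sf1 and Epsti1, Il21r like Kat2b and Nemp2, Il6ra like Cd63 and Ifitm2, and Il6st like Pced1b and March2. Il12rb2 was most like Cep55 and Fabp5, and Tgfbr2 like Akap13 and Kdm7a. The measure is over 6 points and describes profiles only.

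Within cultures, cells without an Il2ra UMI were set beside cells with 1 or more. Il7r was higher in the cells without one at 80 pmol L6F, with 32.8 CPM against 22.9 CPM (log2 ratio 0.52, 0.21 to 0.82), and at 20 pmol L6F, with 28.7 CPM against 22.5 CPM (0.35, 0.05 to 0.64). In M9C cultures the sign varied: the log2 ratio was -0.51 at 0.2 pmol (-1.16 to 0.10), 0.76 at 2 pmol (0.10 to 1.41) and -0.71 at 20 pmol (-1.63 to 0.13). At 80 pmol L6F, Il7r was also at 21.1 CPM in the deepest tertile and 43.8 CPM in the shallowest, and cells without an Il2ra UMI were shallower (median 5180.5 UMIs, against 6748), so the part of depth in the Il2ra split was not tested.

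The rested values rest on few UMIs per cell. With no filter on genes per cell, rested cells had Il7r at 209 CPM, Il4ra at 167 CPM, Il18r1 at 56.8 CPM and Il12rb1 at 2.68 CPM. In the 47 rested cells with 1000 or more genes, Il7r was at 75.7 CPM (11 UMIs), Il4ra at 55.1 CPM (8 UMIs) and Il18r1 at 48.2 CPM (7 UMIs), and Il12rb1, Il12rb2 and Il6st had 0 UMIs. At 20 pmol M9C, Il7r and Il18r1 were more than 2-fold lower than in those deeper rested cells too, and the other members could not be placed past 2-fold. Markers of macrophages or monocytes summed to 2.67 to 26.2 CPM in stimulated cultures and 150.2 CPM in rested cells. Of these, Lyz2 gave 134 of 138 UMIs in rested cells and 331 of 361 at 80 pmol L6F, but 6 of 32 at 2 pmol M9C. Markers of red cells summed to 2.47 to 41.1 CPM in stimulated cultures and 159 CPM in the rested one. For both lists, at most 0.530% of the cells of any culture had 2 or more such UMIs. Their part in the receptor values was not tested beyond a filter on cells. It left out cells with 2 or more UMIs of another type's list or none of the CD8 T list. That removed 677 to 1118 cells of each stimulated culture, where the B cell list reached 2 UMIs in 39.8 to 44.5% of cells, and 61 rested cells. It again gave 7 lower and 2 higher receptor genes at 20 pmol M9C. Of the 7691 genes measured under that setting, 1166 were lower and 1457 higher.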

How the data were processed

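The authors deposited counts of UMIs per gene and of hashtag reads per barcode, made with bcl2fastq and Cell Ranger 6.0.1 on GRCm38, per the submitters' processing notes; the deposited condition list ties each hashtag to a culture. How cells were told from empty droplets is not given in the sources used here. From these counts, UMIs were summed per culture in Python 3.11.15 with pandas 2.3.3 and scipy 1.17.1 and given as CPM with exact Poisson 95% intervals. Ratios have exact Clopper-Pearson intervals. Both kinds of interval treat UMIs as independent of each other, which would give a variance over mean near 1 across cells. It was 1.75 for Il4ra at 80 pmol L6F and 1.65 for Il7r at 20 pmol M9C, but 1.04 for Il12rb1 at 20 pmol M9C. Where it is above 1, the intervals are too narrow for the sampling of cells within a culture. Where a culture had no UMI, a floor of 3 counts per culture was used (3.26 CPM in rested cells). The 1768 barcodes with no such top hashtag, doublets of unlike hashtags among them, were left out, and no other doublet caller was run. There were 10 comparisons. The calculation was tested on simulated data. The members, pathway lists and markers were chosen with earlier results of these data known. All members are named, with the 2 most alike genes each, and list genes by size of ratio. Per comparison, 12 alternatives were listed, HTODemux of Seurat 5.3.0 among them, and 1 was added after seeing the data, leaving out cells with gamma-delta markers. Positions are from GENCODE vM21. Some genes of the lists are not reported here by name.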

Additional observations from a re-analysis of the deposited data

How the results depend on the processing

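Counts of receptor genes past 2-fold kept within 1.5 times of the reported ones in 119 of 130 cases. Those include reported counts of 0 between stimulated cultures that stayed at 0 under every setting, such as both counts at 80 over 20 pmol L6F. Of single log2 ratios 32 changed sign, 9 of which had counted as higher or lower and 23 of which had not. The sign was kept by 200 that had counted and 318 that had not. No paired analysis was possible because each condition was 1 culture. The rested culture is the main limit. With at least 1000 genes per cell (47 rested cells), 20 pmol M9C over rested gave 0 higher and 2 lower of 9 receptor genes, Il7r and Il18r1. Of 8111 genes measured there, 354 were higher and 992 lower. For 20 pmol L6F over rested, 1 of 9 was higher, Il4ra (log2 ratio 1.06, 0.07 to 2.27), and 3 were lower, Il7r, Il6ra and Il18r1. Of 8061 genes measured there, 274 were higher and 859 lower. Il21r at 20 pmol M9C then had a log2 ratio of 0.90, from 1 rested UMI. Il6st at 20 pmol L6F had 0.020, with the rested count of 0 set at the floor of 3 counts, so its sign depends on that floor. In UMIs per cell, 20 pmol M9C over rested gave 2 lower genes, with log2 ratios of 0.85 for Il4ra, 0.82 for Il21r, 0.028 for Il6ra, 0.64 for Il6st and 0.14 for Tgfbr2. On that scale 20 pmol L6F over rested gave 4 higher and 0 lower, with 0.74 for Il6st and 0.30 for Tgfbr2. A 50 CPM filter in place of 10 left 0 higher receptor genes over rested cells for either peptide. It left 0 lower for 20 over 0.2 pmol M9C and 1 lower, Il4ra, for M9C over L6F, since fewer genes are then tested. Of all genes at 50 CPM, 762 of 3516 were higher at 20 pmol M9C over rested and 640 of 3437 at 20 pmol L6F over rested. At 20 over 0.2 pmol M9C 5 of 3060 were lower, and for M9C over L6F 19 of 3097. Over all genes, the scaling moved the split at 20 pmol M9C over rested: 1316 higher and 1244 lower in CPM, 888 and 1957 with totals free of mitochondrial and ribosomal protein genes, Malat1 and Gm42418 (median log2 ratio -0.22), and 7059 and 127 per cell; for L6F it was 1103 and 1078, 743 and 1766 (median -0.23), and 7084 and 75. With median-of-ratios size factors the medians were 0.19 and 0.17. The directions of the 9 measured receptor genes in CPM held under both other totals. M9C over L6F at 20 pmol kept 2 lower genes under every setting but the 50 CPM filter.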
